A study of Homo sapiens with 24 samples.

Results

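FOXP1 was silenced with either of 2 siRNAs, and the comparison described here is siFOXP1 #2 (HSS178309) minus siFOXP1 #1 (HSS178308) within each of 4 diffuse large B-cell lymphoma (DLBCL) lines, averaged over the lines. Members are all 24 arrays of the series, 12 of each siRNA, with 3 replicates for each combination of line and siRNA. DB and K422 are of germinal centre B-cell type (GCB-DLBCL), and the activated B-cell type (ABC-DLBCL) is represented by HBL-1 and OCI-Ly3. Cells were nucleofected with 1 µM of a Stealth siRNA and harvested after 48 h, so the silencing was transient. The share of cells that took up the siRNA is not given here. On every array the siFOXP1 RNA carried Cy3 and the RNA of siCtrl cells (a non-targeting Stealth siRNA of low GC content) of the same line carried Cy5. A value is a log2 ratio of siFOXP1 over siCtrl, and a dye bias that a probe shows on every array cancels in #2 minus #1. It does not cancel in the values of #1 or #2 against siCtrl, because the dyes were not swapped. The labels mostly name a separate control sample for each siRNA, but whether control RNA was shared between arrays is not stated.

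FOXP1 is a forkhead transcription factor that can act as a repressor and is strongly expressed in many ABC-DLBCL. An siRNA guides the RNA interference machinery to a matching transcript, and it can also lower other transcripts that match it in part, most often through the short seed near the guide's 5′ end. A gene downstream of FOXP1 could move with both siRNAs, or be called only with the stronger one. A gene that an siRNA hits by partial match would move with that siRNA alone. Genes were therefore sorted by the calls of #1, of #2 and of their difference. A call needed a limma Benjamini-Hochberg adjusted p under 0.05 over all genes and a log2 value of at least 0.5 in size, which is 1.41-fold. Graded genes were called with both siRNAs in one direction and moved further with #2. Level genes were called with both siRNAs in one direction, with no called difference. Genes of #1 only or of #2 only were called with that siRNA, not with the other, and in the difference. Because #2 lowered FOXP1 further, a gene of #2 only can follow either the depth of FOXP1 loss or the siRNA. The class does not tell these apart.

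Between 57.2% and 64.4% of an array's probes exceeded background clearly in one channel or both, and the SD of the log2 ratios of an array ran from 0.39 to 0.57. The B cell markers MS4A1, CD79A, CD79B, PAX5 and CD22 were bright, a word used here for signal well over background in each channel of all 24 arrays. LYZ and MPO of myeloid cells and HBB of erythroid cells were above background on 0 arrays. Markers of other cell types were not all absent. Above background on 12 or more arrays were 2 of 5 myeloid, 3 of 6 T cell and 1 of 4 NK cell markers. So were 2 of 4 epithelial, 1 of 4 fibroblast, 3 of 3 plasma cell and 0 of 3 erythroid markers. No marker of another cell type was called in the difference. Each same-numbered pair of #1 and #2 arrays lay on 1 slide, with #1 at an odd and #2 at an even position on the slide. Array position and siRNA therefore cannot be told apart from the ratios alone. The siCtrl channel lay at the same positions, and its own comparison is given with the results, but it carries the other dye and does not measure a position effect in the siFOXP1 channel.

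FOXP1 itself showed how far apart the siRNAs were. In DB the log2 ratio of the FOXP1 transcript was -0.95, -1.61 and -1.34 on the #1 arrays and -2.71, -2.69 and -2.69 on the #2 arrays. In K422 it was -0.95, -0.96 and -0.83 with #1 and -1.80, -1.79 and -1.70 with #2. In HBL-1 it was -1.22, -1.57 and -1.09 against -1.93, -2.50 and -2.14, and in OCI-Ly3 -1.48, -1.39 and -1.56 against -2.51, -2.34 and -2.50. The 12 arrays of #2 were all below the 12 arrays of #1. Over the 4 lines 42.2% of the siCtrl level was left with #1 and 20.6% with #2 by this probe (chr3:71091098-71091157, hg18), and 36.4% and 22.0% by a dimmer FOXP1 probe. These levels made #2 the stronger siRNA, so they are a description, and where FOXP1 is counted among called genes below, its call supports nothing. On the log2 scale #2 lowered FOXP1 1.83 times as far as #1.

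How many genes each siRNA moved depended on the size limit. Averaged over the lines, 1133 of 30139 genes (3.76%) were called with #1, 653 higher (2.17%) and 480 lower (1.59%). With #2 they numbered 794 of 30140 (2.63%), 457 higher (1.52%) and 337 lower (1.12%). At a log2 limit of 1 the order turned, with 130 genes for #1 and 143 for #2. Within lines at the limit of 0.5, DB had 878 genes called with #1 (2.91%) and 417 with #2 (1.38%), and K422 1418 (4.7%) and 765 (2.54%). HBL-1 had 1899 (6.3%) and 3264 (10.8%), and OCI-Ly3 1335 (4.43%) and 838 (2.78%). The count was greater with #2 in HBL-1 and greater with #1 in DB, K422 and OCI-Ly3. The difference between siRNAs itself was called for 57 of 30138 genes (0.189%), 36 higher (0.119%) and 21 lower (0.0697%) with #2, and 394 genes (1.31%) passed the adjusted p alone. The SE and p of this averaged difference, here and below, come from scatter among arrays of one line and siRNA. They do not measure the spread between lines. With each line as 1 value, 0 genes were called (2517 at an unadjusted p under 0.05 in limma).

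Among genes called with both siRNAs in one direction, few had a called difference between the siRNAs. There were 421 level genes, 220 higher and 201 lower, against 4 graded genes. A probe's dye bias would also give similar values with both siRNAs, and without a dye swap it cannot be told apart from silencing here. Among the 101 bright level genes, the 78 raised genes had a median log2 ratio of 0.58 with #1 and 0.58 with #2, and the 23 lowered genes had -0.63 with #1 and -0.56 with #2. The ratio of #2 to #1 ran from 0.499 to 1.39 over these 101 genes, and for 0 of them did it reach the 1.83 of the brighter FOXP1 probe. The class was chosen for having no called difference, which itself limits this ratio, so these values describe it and test nothing. A gene with small changes could scale as FOXP1 did and still miss the limit of 0.5 on the difference. The counts of level and graded genes therefore do not show that the extents were equal.

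**Figure D1:**
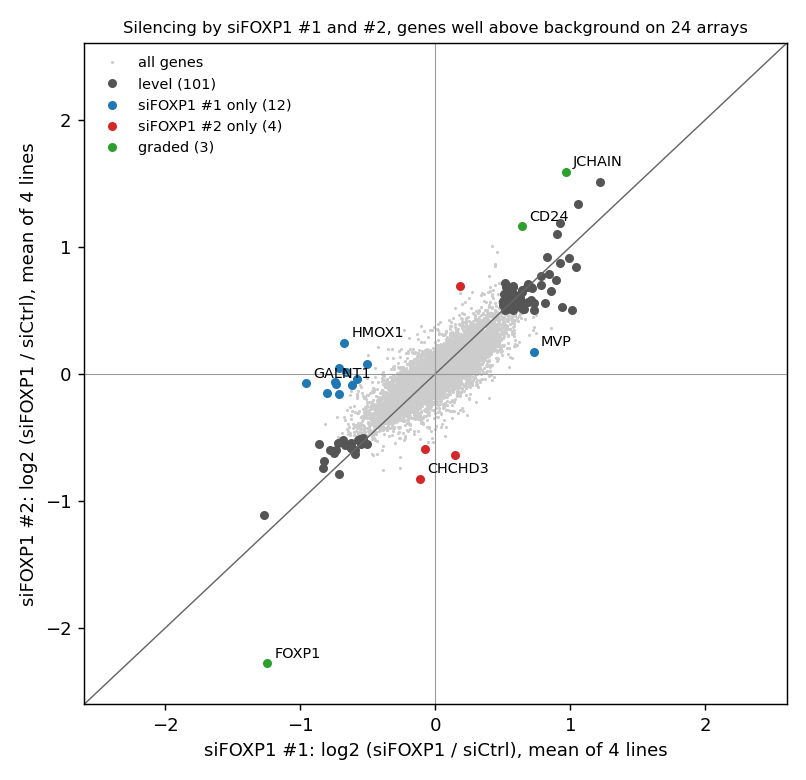
Mean log2 ratio of siFOXP1 over siCtrl with siFOXP1 #1 (x axis) and siFOXP1 #2 (y axis), each averaged over 4 lines, for bright genes. The diagonal marks equal change: the 101 level genes lie around it, FOXP1 lies below it at -1.25 and -2.28, and the genes of 1 siRNA lie near an axis.

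Several genes that the study named were level. LPP, a LIM-domain protein of focal adhesions, averaged 0.92 with #1 and 1.18 with #2, a difference of 0.26 (95% interval 0.07 to 0.46, adjusted p = 0.247). NEIL1, a DNA glycosylase of base excision repair, averaged 1.22 and 1.51, a difference of 0.29 (-0.10 to 0.67, adjusted p = 0.644). VNN2 (0.82 and 0.92), FCRL5 (1.23 and 1.36), FCGBP (0.83 and 1.00) and CD74 (0.57 and 0.51) were also level. These averages were not shared evenly by the lines. CD74 was called with both siRNAs in HBL-1 (0.89 and 1.01) and OCI-Ly3 (0.84 and 0.62). It was called with neither in DB (0.32 and 0.27) or K422 (0.22 and 0.15). FCRL5 was called only in HBL-1 (3.06 and 3.38) and OCI-Ly3 (1.47 and 2.00). FCGBP was called only in OCI-Ly3 (2.13 and 2.86), and VNN2 in every line but HBL-1 (0.47 and 0.42). C12orf42 was called lower on average, at -2.03 and -1.73, but in DB and K422 its siFOXP1 channel was not well above background, and those lines carried the mean. In OCI-Ly3, with signal in both channels, it was 0.39 with #1 (adjusted p = 0.142) and 0.67 with #2 (adjusted p = 0.0174), and a second, dimmer probe averaged 0.26 and 0.66 over the lines. None of the 15 listed study genes was called in the difference averaged over lines, but C12orf42 in HBL-1 was, at -1.10 with #1 and 0.17 with #2 (adjusted p = 0.0262).

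By the average over lines, 3 genes besides FOXP1 were graded, all higher on silencing and further so with #2. IGJ, now JCHAIN, encodes the joining chain of polymeric IgM and IgA. Its log2 ratio ran from -0.41 over a median of 0.68 to 3.13 on the #1 arrays and from 0.32 over 1.06 to 3.97 on the #2 arrays. The groups overlapped because the lines differed more than the siRNAs: in HBL-1 the arrays gave 3.13, 2.82 and 2.70 with #1 and 3.58, 3.97 and 3.81 with #2. In OCI-Ly3 they gave 0.19, -0.19 and 0.13 against 0.56, 0.72 and 0.97. JCHAIN was higher with #2 in 4 of 4 lines, on average by 0.62 on the log2 scale (SE 0.12, 95% interval 0.37 to 0.88, 1.54-fold, limma adjusted p = 0.0125). No line taken alone had a called difference, and the lowest limma adjusted p was 0.205, for HBL-1. With #1 JCHAIN was not called in DB (mean 0.15) or OCI-Ly3 (mean 0.04). Its graded class thus holds for the average over lines only.

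CD24, a glycosylphosphatidylinositol-anchored sialoglycoprotein of B-cell precursors, differed in the ABC-DLBCL lines. In HBL-1 its values were 1.98, 1.78 and 1.67 with #1 and 3.04, 2.95 and 2.92 with #2, and in OCI-Ly3 0.20, 0.32 and 0.32 against 1.36, 0.92 and 1.05. In DB and K422 the arrays of both siRNAs overlapped, and the difference in K422 was 0.10. The mean difference was 0.52 (SE 0.08, adjusted p = 0.00202), and it was called in 21 of 24 fits that left out 1 array. Whether it differed between lines was tested as an interaction, and the adjusted p was 0.0715. The files place this probe at a copy of CD24 on chromosome Y, and near-identical copies of CD24 cannot be told apart by it. The ratio of #2 to #1, taken on the means over lines, was 1.65 for JCHAIN and 1.81 for CD24. Graded genes were chosen for moving further with #2, which itself raises this ratio. These values therefore describe the class and test nothing, and they are no match to the ratio of FOXP1.

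**Figure D2:**
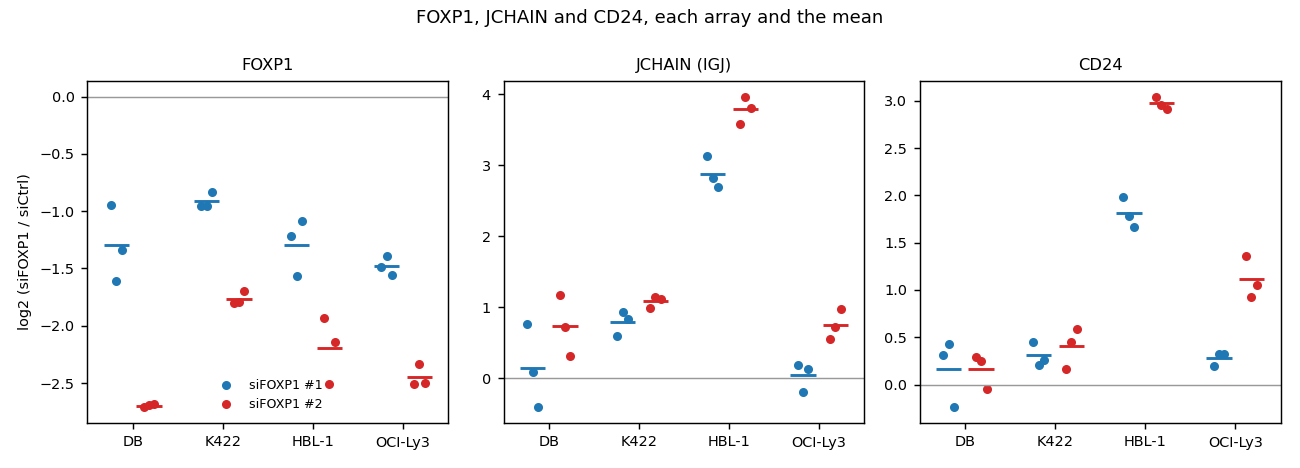
Log2 ratio of siFOXP1 over siCtrl on each array (points) and its mean over 3 replicates (bars) for FOXP1, JCHAIN and CD24 in 4 lines, siFOXP1 #1 in blue and #2 in red, each panel with its own y axis. FOXP1 was lower with #2 in each line, and JCHAIN and CD24 reached their highest values with #2 in HBL-1.

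The promoter of JCHAIN is shown because JCHAIN is the graded gene, apart from FOXP1, with the greatest difference. The window of 250 bases before to 50 after the gene's start, chr4:70666459-70666758 on the minus strand (RefSeq, GRCh38.p14), was searched for forkhead-type motifs on both strands, and a match would be in capitals. The first motif was TGTTTAC. The second was TATTTAT. The last was TATTTGT.
JCHAIN: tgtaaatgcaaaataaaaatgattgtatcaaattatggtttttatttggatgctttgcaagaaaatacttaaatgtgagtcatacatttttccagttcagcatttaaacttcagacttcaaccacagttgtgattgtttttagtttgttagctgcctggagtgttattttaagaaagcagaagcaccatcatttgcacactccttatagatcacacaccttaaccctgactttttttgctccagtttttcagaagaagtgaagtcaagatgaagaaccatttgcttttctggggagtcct
None of the 3 motifs is in these letters, and 10.9% of 35116 windows of the same length hold at least one of them. That says nothing of FOXP1 at other sequences or outside the window.

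Where the depth of FOXP1 loss was taken from each array, siRNA and depth moved together. With line as a factor, the log2 ratio of 275 of 30141 genes (0.912%) had a slope on that of FOXP1, 148 rising as FOXP1 fell and 127 falling. These calls included 1 of the 3 graded genes (JCHAIN, adjusted p = 0.0460), but also 16 of the 21 genes of #1 only and 7 of the 15 of #2 only. Among replicates of one line and one siRNA, where the siRNA is fixed, 0 genes were called with limma (1567 at an unadjusted p under 0.05). The SD of FOXP1 was 0.19 there against 0.60 around the line means, so its range was small. Genes that scale with FOXP1 and genes of one siRNA cannot be told apart by the first of these fits.

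Some genes fell with #1 and stayed near 0 with #2. GALNT1, an enzyme that starts mucin-type O-glycosylation in the Golgi, gave -1.10, -1.46 and -1.37 in DB with #1 and -0.03, -0.02 and -0.03 with #2. In K422 it gave -1.09, -0.66 and -0.76 against -0.13, -0.13 and -0.19, in HBL-1 -0.78, -1.01 and -0.89 against 0.20, 0.10 and 0.19, and in OCI-Ly3 -0.84, -0.75 and -0.77 against -0.40, -0.25 and -0.21. The 12 arrays of #1 were all below the 12 of #2. The difference was 0.88 (SE 0.05, 1.85-fold, adjusted p = 2.75e-08), and GALNT1 and FOXP1 were the only genes called in the difference in each of the 4 lines taken alone.

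GALNT1 was 1 of 6 genes that fell with #1 in each of 4 lines while #2 lowered them by less than 0.5 in every line. MAP3K2, a kinase upstream of MAP kinase cascades, ran from -0.94 over a median of -0.73 to -0.49 with #1 and from -0.63 over 0.00 to 0.14 with #2 (difference 0.65, SE 0.06, adjusted p = 6.94e-06). LIN7C, a scaffold protein of cell junctions, ran from -1.36 over -0.71 to -0.49 against -0.67 over -0.13 to 0.19 (difference 0.65, SE 0.08, adjusted p = 0.000430). PPP3CB, a catalytic subunit of calcineurin, ran from -0.94 over -0.58 to -0.32 against -0.39 over -0.11 to 0.22 (difference 0.53, SE 0.06, adjusted p = 0.000124). The arrays of the siRNAs overlapped for each of these 3 genes. In HBL-1, #2 too gave LIN7C a mean of -0.49.

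The other 2 are transcripts known by a consensus identifier. THC2649313 (chr1:191490230-191490289, hg18) averaged -0.74 with #1 and -0.06 with #2, and THC2611791 (chr10:126666572-126666631) -0.66 and 0.01. None rose with #1 in all 4 lines by the same rule. With #2, CHCHD3 fell and BFSP2 rose in each line.

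CHCHD3, a subunit of the MICOS complex that shapes mitochondrial cristae, gave -1.0, -1.20 and -1.10 in DB with #2 and -0.10, -0.08 and -0.21 with #1. In K422 #2 gave -0.51, -0.60 and -0.49, in HBL-1 -0.99, -0.91 and -1.10, and in OCI-Ly3 -0.65, -0.65 and -0.69, while #1 stayed between -0.24 and -0.01 on its 12 arrays. The groups did not overlap, and CHCHD3 fell by 0.71 from #1 to #2 (SE 0.03, 1.63-fold, adjusted p = 2.37e-09). A second CHCHD3 probe fell by 0.70. BFSP2, a beaded filament protein known from the lens, ran from -0.06 over 0.10 to 0.70 with #1 and from 0.41 over 0.73 to 0.90 with #2 (difference 0.51, SE 0.07, adjusted p = 0.000474). Its difference lay at the limit of 0.5 and was called in 19 of 24 fits without 1 array.

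**Figure D3:**
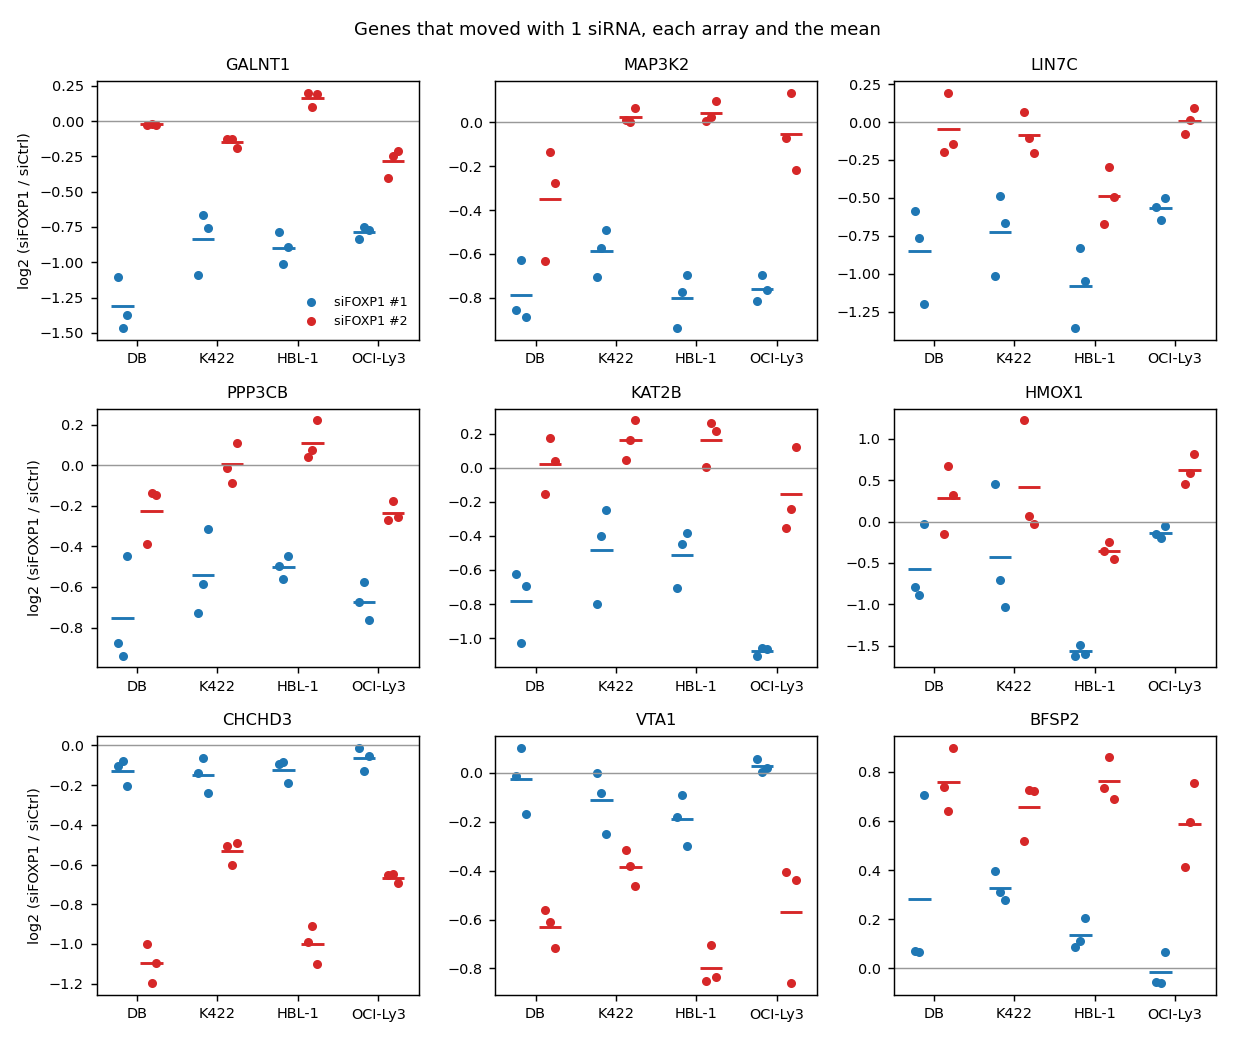
Log2 ratio of siFOXP1 over siCtrl on each array (points) and its mean over 3 replicates (bars) for 9 genes in 4 lines, siFOXP1 #1 in blue and #2 in red, each panel with its own y axis. GALNT1, MAP3K2, LIN7C, PPP3CB, KAT2B and HMOX1 were lower with #1, CHCHD3 and VTA1 were lower with #2, and BFSP2 was higher with #2.

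By the average over lines, 21 genes were called with #1 only, 13 lower and 8 higher, and 15 with #2 only, 7 lower and 8 higher. KAT2B, a histone acetyltransferase of coactivator complexes, averaged -0.71 with #1 and 0.05 with #2 and was higher with #2 in 4 of 4 lines (difference 0.76, SE 0.08, adjusted p = 4.37e-05). HMOX1, the inducible heme oxygenase, averaged -0.68 and 0.24 (difference 0.92, SE 0.17, adjusted p = 0.0106), and in HBL-1 it gave -1.62, -1.49 and -1.61 against -0.35, -0.25 and -0.45. MYB, a transcription factor of blood progenitors and of germinal centre cells, averaged -0.50 and 0.08 (difference 0.58, SE 0.10, adjusted p = 0.00735), with the lowest values, -1.34, -0.96 and -1.04, in K422 with #1. MVP, the main protein of vault particles, was the opposite case, at 0.73 with #1 and 0.17 with #2 (adjusted p = 0.000180).

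With #2 only, VTA1, a cofactor of the ESCRT machinery, ran from -0.30 over -0.05 to 0.10 with #1 and from -0.86 over -0.59 to -0.32 with #2, without overlap (adjusted p = 4.80e-05). GLIPR2, a protein of Golgi membranes, averaged 0.15 and -0.64 (adjusted p = 0.000531). TTC9 averaged -0.22 and 0.57 (adjusted p = 0.000361), but 2 further TTC9 probes, both dim, differed by 0.19 and 0.04. SOCS3, an inhibitor of cytokine signalling, was lower with #2 by -0.73 in the ratio (adjusted p = 0.00205), but by -0.14 in the siFOXP1 channel alone, while the siCtrl channel was 0.57 higher on the #2 arrays. For SOCS3 the ratio thus differed mostly through the control channel.

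Of the 57 genes, 16 were called in the difference without a call for either siRNA. TLR7, the endosomal sensor of single-stranded RNA, averaged -0.28 with #1 and 0.49 with #2 (difference 0.77, SE 0.16, adjusted p = 0.0229), with 1.45 in DB, 1.05 in OCI-Ly3, 0.59 in HBL-1 and -0.02 in K422. Both channels exceeded background on 19 arrays. EIF2C4, now AGO4, is an Argonaute protein of RNA interference and averaged -0.35 and 0.19 (difference 0.55, adjusted p = 0.00151). PIK3CG, the gamma catalytic subunit of phosphoinositide 3-kinase, averaged -0.35 and 0.20 (adjusted p = 0.00387). CCDC117 ran from 0.08 to 0.72 with #1 and from -0.75 to 0.01 with #2, without overlap (adjusted p = 0.00189), although a second probe differed by -0.16.

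Signal over background differed widely among the called genes. Of the 57 genes, 25 were bright: 19 were higher and 6 lower with #2, and 24 of the 25 had 1 sign in all 4 lines. The genes were called on the average of the same 4 line differences, which favours a shared sign. The 25 bright genes hold 12 genes of #1 only, of which 11 fell and MVP rose, 4 of #2 only (VTA1, GLIPR2, CHCHD3 and BFSP2), FOXP1, JCHAIN, CD24, and 6 with neither siRNA called. For 11 of these 25 genes, 12 further probes were equally above background, all 12 had the sign of the first probe and 10 passed an adjusted p of 0.05. In contrast, 14 of the 57 genes were above background in either channel on fewer than 12 arrays.

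Each channel was also compared alone. Between #2 and #1 arrays, by the same rule, the siCtrl channel gave 2 called genes of 30138 (0.00664%), and both were above background there on 0 arrays. The siFOXP1 channel alone gave 37 (0.123%), 20 higher and 17 lower, and 21 of the 57 genes were among them. For the 25 bright genes the siCtrl channel differed by between -0.09 and 0.02, while the siFOXP1 channel differed by between 0.47 and 1.03 in size and had the sign of the ratio in 25 of 25. The ratio is made from these 2 channels and the genes were chosen by it. With a small siCtrl difference, the size and sign in the siFOXP1 channel follow from that choice and are no separate support. For 17 of the other 32 genes the siCtrl channel differed by more than 0.2 in size. With normexp background correction and loess in place of the deposited ratio, HMOX1 (0.84), GALNT1 (0.84), CHCHD3 (-0.70) and JCHAIN (0.57) were still called. With median centring in place of loess, FOXP1 and GALNT1 were the 2 genes called, and HMOX1 (0.87), CHCHD3 (-0.66) and JCHAIN (0.54) had an adjusted p of 0.502, 0.576 and 1.00. With loess, KAT2B (0.50), LIN7C (0.48), MAP3K2 (0.46), PPP3CB (0.46), MVP (-0.49), VTA1 (-0.45), BFSP2 (0.38), GLIPR2 (-0.44), TTC9 (0.50), THC2649313 (0.48), THC2611791 (0.31) and MYB (0.31) then lay under the size limit with an adjusted p still under 0.05.

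**Figure D4:**
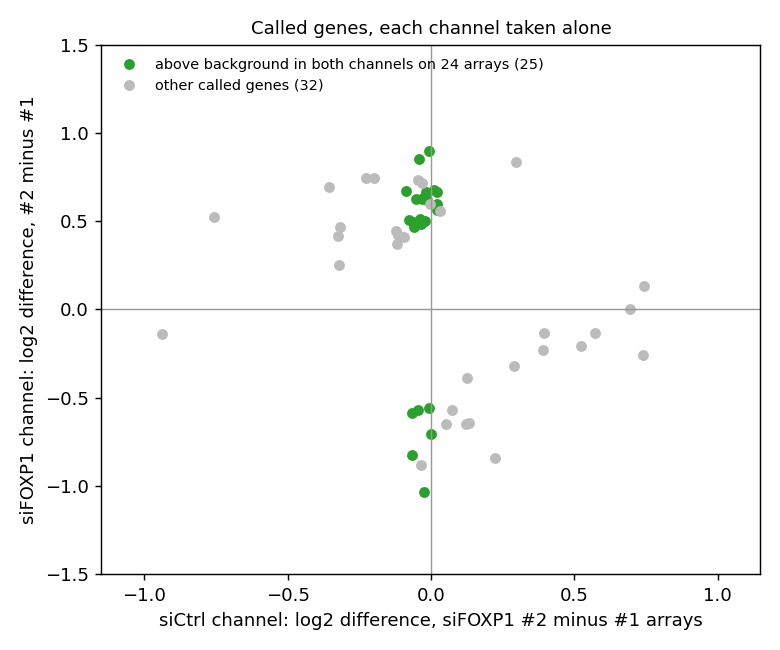
Log2 difference between siFOXP1 #2 and #1 arrays in the siCtrl channel (x axis) and in the siFOXP1 channel (y axis) for the 57 called genes. The 25 bright genes (green) lie within -0.09 and 0.02 on the x axis, whereas many of the other 32 (grey) differ along the x axis as well.

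DB and OCI-Ly3 were scanned in one session and K422 and HBL-1 in another, so each list could be read in the other session. Of 82 genes called in the first (0.272%), 67 had the same sign in the second and 11 were called there, and of 36 called in the second (0.119%), 31 had the same sign in the first. These lists share the error estimate of all 24 arrays, and fits on the arrays of one session alone called 20 and 34 genes. Restricted to genes above background on all arrays, 43 of 44 and 21 of 21 kept their sign. The 11 genes called in both were FOXP1, GALNT1, MAP3K2, LIN7C, KAT2B, CHCHD3, GLIPR2, MVP, TTC9, THC2649313 and THC2611791. GALNT1 differed by 0.89 and 0.87, and CHCHD3 by -0.78 and -0.63.

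Taken line by line, DB had 91 genes called in the difference (0.302%), K422 had 48 (0.159%), HBL-1 had 52 (0.173%) and OCI-Ly3 had 58 (0.192%). These counts rest on 3 arrays a side: the count in DB was 283 without #1 replicate 1 and 160 without #1 replicate 2, that in K422 was 81 without its #1 replicate 2, 78 without its #1 replicate 3 and 79 without DB #1 replicate 3, and that in HBL-1 was 31 and 23 without its #1 replicates 2 and 3. Called differences that were large and had signal on all 3 arrays of a siRNA concerned other genes in each line. In K422 the log2 difference was -2.08 for GRASP, a scaffold of receptor trafficking, and 1.51 for OGN, a proteoglycan of extracellular matrix. In HBL-1 it was 1.77 for CHGB, a granin of secretory granules, and -1.75 for SOCS3. In OCI-Ly3 it was -1.61 for ADAD2, whose channels both exceeded background on 1 of 6 arrays there. Over all lines ADAD2 differed by -0.23 in the siFOXP1 channel and by 0.39 in the siCtrl channel. In DB it was 1.31 for ERBB4, a receptor tyrosine kinase. An interaction of line and siRNA was called for 41 genes (0.136%).

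Of 39 cell cycle and DNA replication genes, 0 were called in the averaged difference (0.189% of all genes were), and the median was 0.07 against 0.00 for all genes. By line, 37 of 39 were higher with #2 in DB (median 0.24), 38 of 39 in K422 (0.13) and 35 of 39 in OCI-Ly3 (0.12), whereas in HBL-1 1 of 39 was higher and the median was -0.28. In HBL-1 11 of the 39 were called lower with #2 against siCtrl, where 4.84% of all genes were, among them PCNA, the sliding clamp of DNA polymerases (-0.82), E2F2, an activator of S-phase genes (-0.86), and CCNE2, a cyclin of S-phase entry (-0.80). With #1 those were -0.40, -0.48 and -0.04, and 1 of the 39 was called lower, with 2.59% of all genes. No member of the list was called in the difference in any line.

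Of 39 interferon-stimulated genes, 31 were lower or equal with #2, the median difference was -0.19, and the lists' medians were 0.23 with #1 and -0.01 with #2. The lowest median was in K422, where 1 of 39 was higher with #2 and the median was -0.50. There HERC6, an interferon-induced HECT-domain protein, averaged 0.46 with #1 and -0.37 with #2 (adjusted p = 0.00112), and MX2, a dynamin-like antiviral GTPase, 0.44 and -0.23 (adjusted p = 0.0218), 2 called of 39 against 0.0995% of all genes called lower there. Averaged over lines 0 of 39 were called in the difference, 3 were called higher with #1 and 2 with #2. Of all genes, 0.189% were called in the difference, 2.17% higher with #1 and 1.52% higher with #2. Of 16 genes of MHC class I presentation 3 were higher with #2, with a median of -0.15 and 0 called.

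The 18 genes of the MHC class II list, CIITA included, the antigen presentation genes that the study centred on, had a median difference of -0.04 and 0 calls (0.189% of all genes were called). By line 17 of 18 were higher with #2 in HBL-1 (median 0.28) and 2 of 18 in OCI-Ly3 (median -0.26). In OCI-Ly3 12 of 18 were called higher with #1 and 5 with #2, and in HBL-1 3 with #1 and 8 with #2. Of all genes, 2.61% and 1.78% were called higher with #1 and #2 in OCI-Ly3, and 3.71% and 5.99% in HBL-1. CD74, the invariant chain, differed by 0.12 in HBL-1 and by -0.22 in OCI-Ly3. Genes of these lists are co-regulated and are not independent replicates, and whether the lists differed between lines was not tested.

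**Figure D5:**
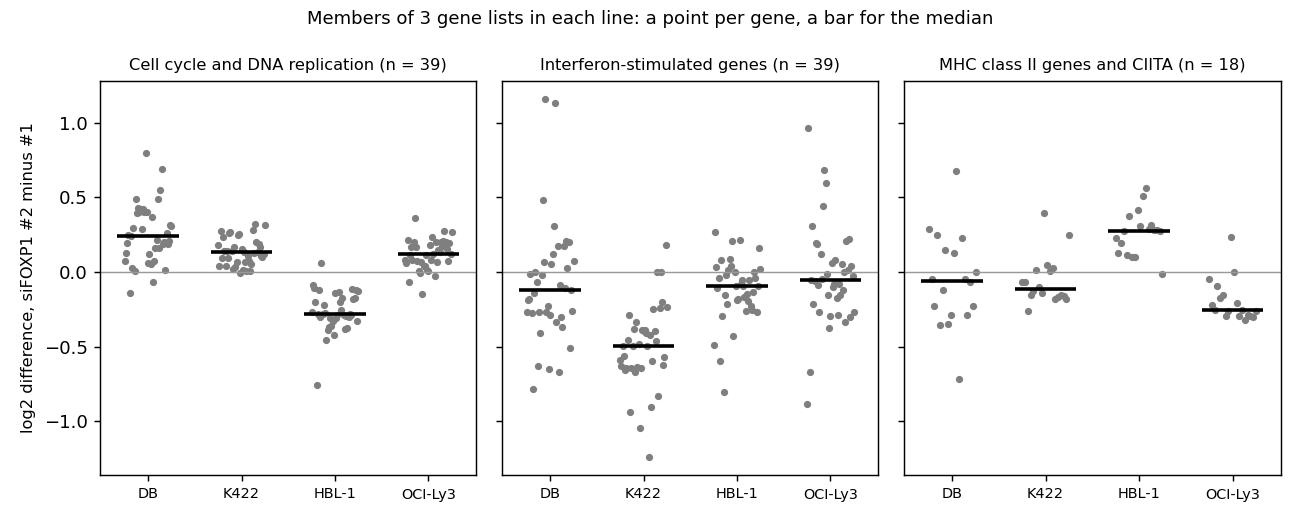
Log2 difference between siFOXP1 #2 and #1 in each line (points are genes, bars are medians) for 39 cell cycle and DNA replication genes, 39 interferon-stimulated genes, and 18 MHC class II genes and CIITA. The medians of the cell cycle genes were 0.24 for DB, 0.13 for K422, -0.28 for HBL-1 and 0.12 for OCI-Ly3, the lowest median of the interferon-stimulated genes was -0.50 in K422, and those of the MHC class II genes were 0.28 for HBL-1 and -0.26 for OCI-Ly3.

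The remaining lists held few or no called members. In the difference, 3 genes were called among 22 of B cell and plasma cell fate, MYB and JCHAIN among them, TLR7 among 16 genes of RNA sensing, AGO4 among 16 genes of the RNA interference machinery, and FOXP1 among 12 FOXP and FOXO factors. Of all genes, 0.189% were called. The lists were chosen with earlier results of these data known. None was called among 27 p53 targets, 27 genes of the integrated stress and unfolded protein responses, 17 G1 regulators, 26 survival and death genes, 30 of sterol and fatty acid synthesis, 23 immediate early genes, 32 of B cell receptor and NF-kB signalling, 41 chemokines, cytokines and receptors, 29 Wnt and beta-catenin genes and 15 ubiquitously expressed genes. Their median differences lay between -0.03 and 0.06. The median of the sterol list was 0.24 in DB and -0.10 in OCI-Ly3.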

How the data were processed

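RNA of siFOXP1-treated cells (Cy3) and siCtrl cells (Cy5) was hybridised to 24 2-colour Agilent arrays. The authors deposited Feature Extraction output (version 10.5.1.1 for DB and OCI-Ly3, 10.7.3.1 for K422 and HBL-1, per the file headers), which holds the intensity of each channel and a log10 ratio from which background was subtracted and which was normalized array by array. The authors also deposited a matrix of log2 ratios, used as an alternative. Where both channels are at background the ratio may be set to 0. Control spots and outliers were removed, repeated spots averaged, the log10 ratio was turned to log2 of siFOXP1 over siCtrl, and the brightest probe stood for each of 30142 genes. Names come from the array design, and 16806 matched a RefSeq gene by accession. Coordinates are hg18 unless stated.

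R 4.3.3 and limma 3.58.1 fitted 8 means, 1 per line and siRNA, with Benjamini-Hochberg adjustment over all genes. The single-channel comparisons used quantile normalized log2 signals. The siCtrl and siFOXP1 channels, the scan sessions and the slope on FOXP1 were analysed as in the report. The script was tested on simulated data. The labels call the 3 arrays of a group biological replicates. The number of arrays limits the precision.

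Named genes were, in each class and direction, the 4 with the greatest difference (for level genes, the greatest mean) that passed a signal rule and had 1 sign in all lines, genes of a single siRNA in all 4 lines, the greatest differences of each line, the study's genes and called members of the gene lists. CD24, CCDC117 and PIK3CG were named after their values were seen. The members, lists and rules were chosen with earlier results of these data known. A few genes that met these rules are not reported here. siRNA sequences were not used here, so matches of the siRNAs to transcripts were not analysed. Alternatives were normexp (offset 50) with loess or median centring, the deposited matrix, signal filters, outlier spots kept, the mean over probes, the siFOXP1 channel alone, replicate and slide blocks, another prior, the t-test of the methods, other limits, each line as 1 value, and leaving out scans, lines or arrays.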

Additional observations from a re-analysis of the deposited data

Results flagged for a closer look

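The siRNA difference of CHCHD3 was in one direction in all 4 lines but differed in size between them (interaction of line and siRNA, limma adjusted p = 0.0363). It was -0.97 in DB, -0.88 in HBL-1, -0.60 in OCI-Ly3 and -0.39 in K422. FOXP1 itself differed by -1.40, -0.90, -0.97 and -0.85 in the same lines.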

How the results depend on the processing

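The data limit these counts in 3 ways: 3 arrays a side within a line, ratios at or near background for most genes outside the bright set, and a size limit that many differences lay close to. The siRNA difference, called for 57 genes, had 50 to 79 calls without 1 array, 43 to 52 of them among the 57, with 33 of the 57 called in all 24 such fits, and 54 of 57 kept their sign under every alternative run. Its count was 47 to 60 without 1 line, 50 with the mean over probes, 53 with the methods' t-test, 56 from the deposited matrix and 58 with a trended robust prior. The causes of the changes below were not tested.

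Normexp with loess called 9 genes in the difference (all among the 57), 58 for DB, 25 for HBL-1, 26 for OCI-Ly3, 131 for #1 and 118 for #2, 55 level genes, 1 of #2 only, 3 of #1 only, 1 gene of each siRNA in all 4 lines and 22 interactions. Normexp with median centring called 2 (FOXP1 and GALNT1), 0 in DB (1018 at an unadjusted p under 0.05 in limma), 1 in K422, 0 in HBL-1 (175 unadjusted), 0 in OCI-Ly3 (1578 unadjusted), 536 for #1, 319 for #2, 1 graded, 234 level, 0 of #2 only, 1 of #1 only, 1 and 0 genes of #1 and #2 in all 4 lines and 1 interaction. The deposited matrix gave 31 for K422, 27 for HBL-1, 29 for OCI-Ly3. A filter on background in either channel on 12 arrays left 34 in OCI-Ly3 and 3 interactions, and in both channels 34 in OCI-Ly3, 615 for #1, 391 for #2, 215 level genes and 18 interactions. Both channels on 24 arrays, chosen after seeing the data, gave 29 for the difference. The adjusted p alone gave 394 for the difference, 9122 for #1, 7341 for #2, 30 graded, 5430 level, 82 of #2 only, 158 of #1 only, and 66 and 15 genes of #1 and #2 in all 4 lines. A log2 limit of 1 gave 4 for the difference, 32 in DB, 21 in K422, 19 in HBL-1, 25 in OCI-Ly3, 130 for #1, 143 for #2, 1 graded, 101 level, 0 of #1 only or #2 only and 0 of either siRNA in all 4 lines, so that more genes were called with #2 than with #1. The difference had 37 calls in the siFOXP1 channel alone, 20 in scan 1, 34 in scan 2 and 0 with each line as 1 value (2517 unadjusted in limma). The slide as a random block, with a correlation of 0.157 within slides, gave 178 in DB, 76 in K422 and 69 interactions. The siCtrl channel had 0 calls among genes above background on 12 arrays (126 unadjusted in limma) and 1 with scaling to the 75th percentile, and the slope on FOXP1 had 138 with the dimmer FOXP1 probe.

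Same-numbered arrays shared a slide, but the numbers did not meet the rule for pairing, a correlation over 0.1 in every pair: over 17165 genes the deviations of same-numbered arrays correlated between 0.0906 and 0.535, over 0.1 in 10 of 12 pairs, the others being OCI-Ly3 replicates 2 and 3. In the siCtrl channel they ran from 0.188 to 0.843, over 0.1 in 12 of 12. In the ratio and in the siCtrl channel alike, 12 of 12 #1 arrays correlated best with the #2 array of their own number. This is a hint from the data and not the design. The main fit has no replicate block, so its p-values take no account of such a pairing. With the replicate block the difference had 103 calls (53 of the 57 among them), 273 in DB and 93 in HBL-1, with 25 genes of #2 only, 34 of #1 only, 1 in the siCtrl channel and 545 slopes on FOXP1.

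Without 1 array, counts ran from 69 to 283 in DB, 36 to 81 in K422, 23 to 76 in HBL-1, 45 to 84 in OCI-Ly3, 1016 to 1260 for #1, 753 to 902 for #2, 3 to 5 graded, 395 to 460 level, 9 to 16 of #2 only (9 without OCI-Ly3 #1 replicate 1), 18 to 34 of #1 only (34 without DB #1 replicate 1), 4 to 9 and 1 to 2 genes of #1 and #2 in all 4 lines, and 24 to 67 interactions (67 without DB #1 replicate 3, 24 without DB #2 replicate 1, and 25, 26 and 24 without HBL-1 #1 replicates 1, 2 and 3). The count of 1 for #2 in all 4 lines came without DB #1 replicates 1 or 2, DB #2 replicate 3, K422 #2 replicate 2, HBL-1 #2 replicate 2 or OCI-Ly3 #2 replicate 3.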
